A study of Mus musculus with 8 samples.

Results

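Odorant receptor transcripts were read in the olfactory bulb of C57BL/6J male mice. The genes described are those named Olfr followed by a digit with at least 1 spot flagged as well above background on all 8 arrays. They were chosen by the measured signal itself, and 90 of the 1101 Olfr genes on the array (8.17%) met the rule. Among all 34797 gene names on the array, 21712 (62.4%) met it. That the 90 genes were detected is therefore a description of how they were selected, and no test was made of it.

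The mice formed 4 groups. C-C mice were reared in a standard cage and kept in clean air, and C-DE mice were reared in the same way and inhaled diesel exhaust. EE-C and EE-DE mice were reared with environmental enrichment, and were then kept in clean air or given diesel exhaust. Dams were assigned to a cage type at gestational day 14, and pups were weaned at postnatal day 27. The groups are defined by the cage of the perinatal period, and the protocol adds that housing stayed the same in the chambers, so enrichment may not have ended at weaning. The chamber period lasted 8 h per day for 28 days, from postnatal day 28 to 55, with exhaust held at 90 µg/m3, and tissue was taken at 56 days of age. According to the methods, the bulb RNA of several mice per group was combined into 1 pool, and each pool was split over 2 arrays. The design asks whether exposure changes bulb transcripts and whether rearing alters that change.

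With 1 pool per group, the spread between mice was not measured, and no p-value is given. A difference was called where the mean of 1 pool was at least 1.5-fold above or below that of the other (0.585 on the log2 scale), and it is given with its lowest and highest value over the 4 ways to set a single array of one pool against one of the other. All 8 arrays came from 1 slide, where both pools from standard cages filled row 1 and those from enriched cages row 2, and with clean air in columns 1 and 2 and exhaust in columns 3 and 4. Neither rearing nor exposure can be told apart from position on the slide. Precision is limited by the small number of arrays.

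Odorant receptors are G protein-coupled receptors of olfactory sensory neurons, whose cell bodies lie in the nasal mucosa and not in the bulb. Each neuron typically uses a single receptor gene, and the axons of neurons with the same receptor meet in shared glomeruli of the bulb. Receptor mRNA is known to travel into these axons, so a bulb extract can hold it. Genes of class I lie together in a cluster on chromosome 7, and those of class II lie in many clusters elsewhere. In bulb RNA, fewer axons of a type and less RNA per axon cannot be told apart.

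The array reads a receptor through probes of 60 bases, and the sequences matter here because 2 probes of the same gene could give unlike results. The pairs that follow overlap, and capitals mark the bases that both probes of a gene share. Positions are those of the array's own annotation, on mm9.
Olfr373 probe detected on all arrays: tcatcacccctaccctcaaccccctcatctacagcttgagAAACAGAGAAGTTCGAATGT
Olfr373 probe detected on no array: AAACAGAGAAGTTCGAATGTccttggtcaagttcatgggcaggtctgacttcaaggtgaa
Olfr965 probe detected on all arrays: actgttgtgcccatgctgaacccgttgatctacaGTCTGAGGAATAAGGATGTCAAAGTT
Olfr965 probe detected on 1 array: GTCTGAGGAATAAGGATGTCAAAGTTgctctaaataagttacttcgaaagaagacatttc
Olfr1496 first probe, detected on all arrays: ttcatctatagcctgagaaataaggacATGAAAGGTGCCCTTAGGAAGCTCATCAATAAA
Olfr1496 second probe, detected on all arrays: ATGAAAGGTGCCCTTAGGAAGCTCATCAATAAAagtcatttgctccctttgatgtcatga

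The Olfr373 probe detected on all 8 arrays lies on the plus strand at chr8:74624499-74624558, and the one detected on none lies at chr8:74624539-74624598, so 20 bases are common to both. The Olfr965 probes, at chr9:39527651-39527710 and chr9:39527685-39527744, share 26 bases. Those of Olfr1496, at chr19:13855971-13856030 and chr19:13855998-13856057, share 33. Of the 90 genes, 14 had more than 1 probe on the array, and for 2 of these, Olfr288 and Olfr1496, a second probe passed on all 8 arrays as well (14.3%). Among all detected genes with several probes, a second probe passed for 6190 of 8463 (73.1%). The second probes of Olfr32 and Olfr456 were well above background on 7 arrays, that of Olfr536 on 3, and the remaining ones on 1 array or none. The detected signal of most of these genes thus rested on a single probe, and the values that follow are those of the passing probes.

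The passing probes of some receptors described in the results carry these sequences, with no run of 16 or more bases in common with an array probe of another Olfr gene, apart from the 17 bases in capitals that Olfr1500 shares with a probe for Olfr104-ps.
Olfr544: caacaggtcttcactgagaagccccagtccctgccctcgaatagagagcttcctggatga
Olfr173: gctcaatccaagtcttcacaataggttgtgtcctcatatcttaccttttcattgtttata
Olfr1500: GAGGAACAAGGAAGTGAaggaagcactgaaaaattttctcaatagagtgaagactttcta
Olfr414: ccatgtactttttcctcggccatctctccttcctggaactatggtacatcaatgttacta
Olfr536: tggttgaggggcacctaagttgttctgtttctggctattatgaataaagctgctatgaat
Olfr52: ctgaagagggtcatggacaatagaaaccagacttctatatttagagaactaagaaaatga

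They map to chr7:109632628-109632687 for Olfr544, chr16:58796971-58797030 for Olfr173 and chr19:13901950-13902009 for Olfr1500, all on the minus strand. Olfr414 was read at chr1:176360733-176360792 on the plus strand. Olfr536 was read at chr7:147686755-147686814 and Olfr52 at chr2:86021307-86021366, on the minus strand. Over all 92 passing probes of the 90 genes, 18 shared a run of at least 16 bases with a probe of another Olfr gene, 10 of them at least 20 bases, and the longest run was 25. With array probes outside the family, 8 passing probes shared such a run. Among these were that of Olfr1500, with 17 bases of a probe for BC145568, and that of Olfr141, with 19 bases of a probe for Drd4.

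Most of the receptor family was not flagged as well above background on any array. For 687 of the 1101 genes, no spot was well above background on even 1 array, and for 111 the best spot passed on a single array. The number of Olfr genes with a detected spot was 303 and 251 on the C-C arrays, 228 and 278 on the C-DE arrays, 271 and 287 on the EE-C arrays, and 99 and 260 on the EE-DE arrays. The first EE-DE array stood apart from the other 7. Its median background was 29 intensity units against 21 to 24 elsewhere, and 56.7% of all noncontrol spots were well above background on it, against 68.0% to 70.6% on the others.

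That array set the size of the list. The best spot of 88 further Olfr genes passed on exactly 7 arrays, and for all 88 the missing array was the first of EE-DE. With that array left out, 178 genes met the rule. Leaving out any other array kept the number at 90. At the edge of the rule, the passing spots of Olfr52, Olfr1417 and Olfr551 had median intensities of 16.4, 17.9 and 19.3 over the arrays, which were the weakest of the passing genes. Just outside it, Olfr48, Olfr441 and Olfr635 had median intensities of 62.2, 59.5 and 51.1 and failed on the first EE-DE array alone.

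**Figure D1:**
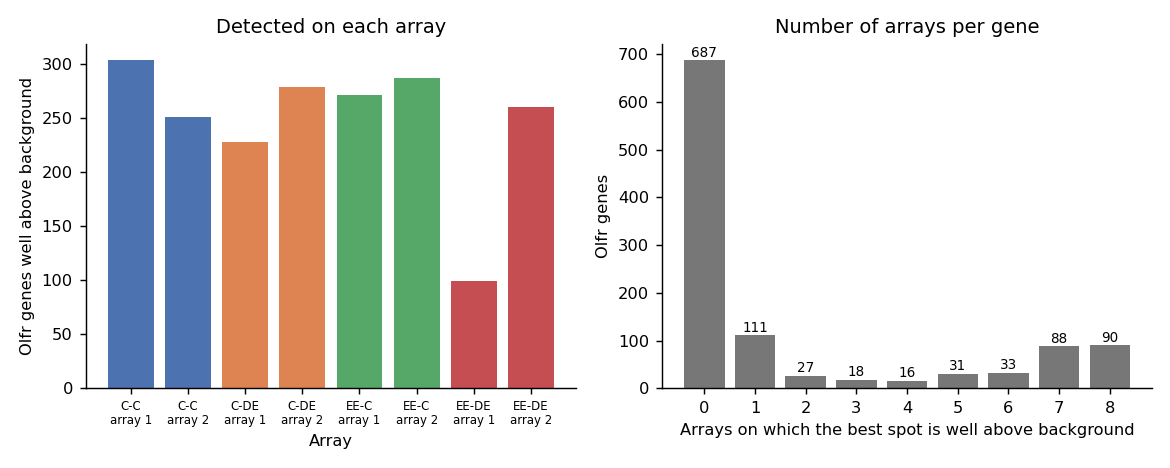
Number of Olfr genes with a spot well above background on each array (left; colours mark the pools) and number of Olfr genes by how many arrays their best spot passed on (right). The first EE-DE array detected 99 genes and the others 228 to 303, and 88 genes lacked a single array.

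Olfr116, Olfr1168 and Olfr1230 (0.272% of the Olfr genes) were detected on the 4 clean air arrays and on no diesel exhaust array, as were 15 of all 34797 genes (0.0431%), these 3 included. The opposite pattern was found for 0 Olfr genes and 0 of all genes. Detection on the 4 standard-cage arrays alone was found for 0 Olfr genes and 14 of all genes (0.0402%), and on the 4 enriched arrays alone for 0 and 0. The higher background of the first EE-DE array, an exhaust array, moves with this pattern, and its part in it was not tested.

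Other chemoreceptor families were also read, and their shares are given as counts. The rule was met by 15 of 164 Vmn1r genes (9.15%) and by 10 of 92 Vmn2r genes (10.9%), which encode pheromone receptors of the vomeronasal organ. It was met by 0 of 14 Taar genes, the trace amine receptors, and by 0 of 6 Fpr genes. Of the Ms4a genes, which are also used by immune cells, 6 of 18 passed.

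The detected receptors were spread over many of the loci at which the family lies. Positions were known for 1094 Olfr genes, which formed 39 clusters of 2 or more genes and 10 single loci when a gap of over 1 Mb was taken as a border, and 28 of these 49 loci held a detected gene. The chromosome 7 cluster in which class I genes lie had 8 detected of 122 (6.56%), among them Olfr544, Olfr549, Olfr551, Olfr558 and Olfr629. The largest cluster, on chromosome 2, had 16 of 220 (7.27%), and another cluster of chromosome 7, with 19 genes, had 4 (21.1%). None of the 63 genes on chromosome 10 and none of the 6 on chromosome X was detected on all arrays. In 7 places the next Olfr gene along the chromosome was detected too, as for Olfr212 and Olfr213 on chromosome 6 and Olfr96 and Olfr97 on chromosome 17. Names that mark pseudogenes were carried by 25 Olfr genes on the array and by 2 of the detected ones, Olfr75-ps1 and Olfr1372-ps1.

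Passing probes were richer in G and C than the remaining probes of the family. Their median was 45% against 40% for the other Olfr probes, with interquartile ranges of 40% to 45% and of 35% to 43.3%. The share of probes that passed was 3.87% of the 672 with over 30% to 40% G and C, 12.0% of the 474 with over 40% to 50%, and 20% of the 45 with over 50% to 60%. In the RefSeq table for GRCm38.p6, 89 of the 90 genes were found by symbol, and 4 overlapped another gene: Olfr288, Olfr524, Olfr1508, whose span overlaps the T cell receptor alpha locus Tcra, and Olfr32. The array probes read 1 strand.

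**Figure D2:**
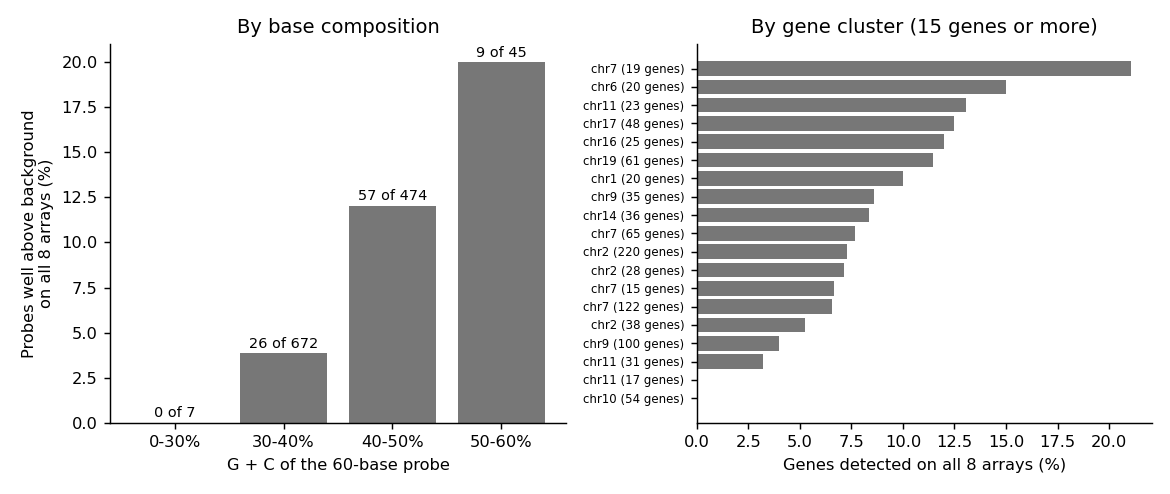
Share of Olfr probes well above background on all 8 arrays by G and C content of the probe (left; labels give passing probes of all probes) and share of Olfr genes detected in each gene cluster of at least 15 genes (right). The share of passing probes was 0, 3.87%, 12.0% and 20% in the classes of rising G and C content, and clusters ranged from 0 to 21.1%.

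Levels are given as log2 of the signal relative to the 75th percentile of the array, so that 0 is a bright signal. The 90 genes were dim: their mean level had a median of −3.64, and 72 of them were among the 5423 dimmest of the 21691 detected genes with unflagged spots, those below −2.40. Olfr544 and Olfr173 alone lay above 0, and 65 genes lay below −3. A level depends on the probe as well as on the RNA, so the order of the probe signals is used below only to choose which genes are described, and it does not give the relative amounts of their RNA. C-DE/C-C stands for the mean level of C-DE minus that of C-C on the log2 scale, and the other pairs of pools are written in the same way.

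The brightest probe signal was that of Olfr544, a class I receptor known to respond to azelaic acid and to be used in tissues outside the nose. Its level was 1.76 and 1.73 on the C-C arrays, 1.91 and 1.95 on the C-DE arrays, 2.10 and 1.99 on the EE-C arrays and 2.00 and 1.99 on the EE-DE arrays. Both C-C arrays were lower than the other 6. C-DE/C-C was 0.18 (0.15 to 0.22 over the pairings) and EE-C/C-C was 0.30 (0.23 to 0.37), both under 1.5-fold, while EE-DE/EE-C was −0.05 (−0.11 to 0.01).

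Olfr173, a class II receptor on chromosome 16, had levels of 1.32 and 1.22 in C-C, 0.55 and 1.06 in C-DE, 1.30 and 1.07 for EE-C, and 0.68 and 1.10 in EE-DE. The first array of each exhaust pool was lower than every other array. C-DE/C-C was −0.47 (−0.78 to −0.16), with no overlap between the arrays, and EE-DE/EE-C was −0.30 (−0.62 to 0.03), with overlap.

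Olfr1500, a chromosome 19 receptor that the study names, had levels of −0.81 and −1.43 in C-C, −1.40 and −1.17 in C-DE, −1.64 and −1.91 for EE-C, and −1.74 and −1.76 in EE-DE. All 4 arrays of enriched pools were lower than all 4 arrays of standard-cage pools. EE-C/C-C was −0.65 (−1.10 to −0.21), a 1.57-fold lower level, and EE-DE/C-DE was −0.47 (−0.60 to −0.33). Between exposed and unexposed pools the arrays overlapped, with −0.17 (−0.60 to 0.26) for C-DE/C-C and 0.02 (−0.13 to 0.17) for EE-DE/EE-C. The largest gap within a pool was that between the C-C arrays, and against the second C-C array alone EE-C/C-C was −0.34. Without the second EE-C array it was −0.52.

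The other 9 genes of the 12 with the highest mean level stayed under 1.5-fold in the 4 comparisons. Olfr1466 had levels of −0.52 and −1.14 in C-C, −0.69 and −0.01 in C-DE, −0.01 and −0.82 for EE-C, and −0.68 and −0.68 in EE-DE. In 3 of the 4 pools its duplicate arrays lay farther apart than the means of any compared pools, while the EE-DE arrays coincided. Olfr373 kept within −0.77 to −0.48 over the 8 arrays, a range of 0.29, and Olfr1402, which lies alone at its locus on chromosome 3, within −1.96 to −1.71, a range of 0.24, the smallest of the 90 genes. Olfr1368, Olfr1229, Olfr1443, Olfr1252, Olfr319 and Olfr921 had differences between −0.29 and 0.23.

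**Figure D3:**
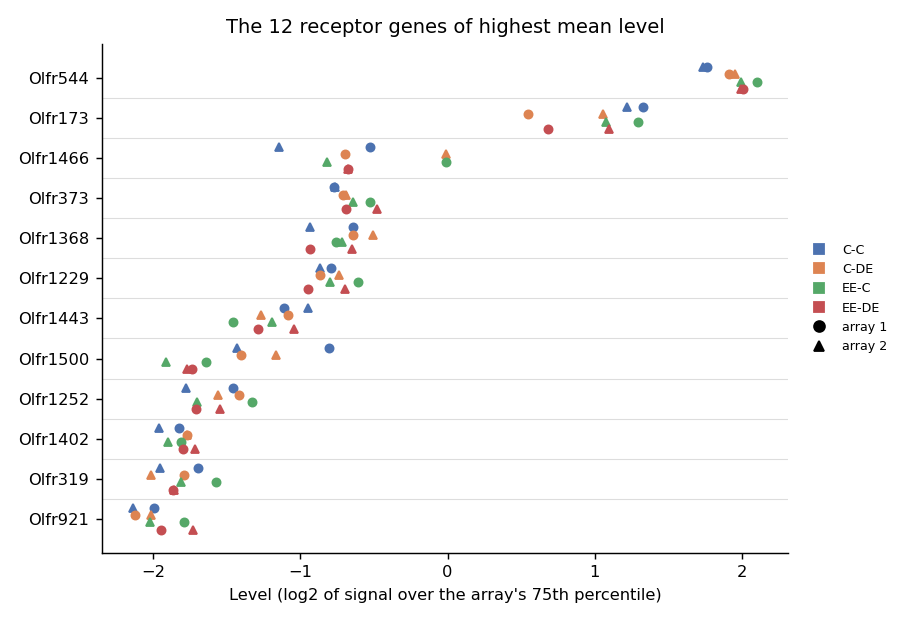
Level of the 12 receptor genes with the highest mean level on each array (horizontal axis, log2 of the signal over the array's 75th percentile); colours mark the pools and symbols the first and second array. Olfr1500 separates the enriched from the standard-cage pools, and the 2 arrays of a pool lie far apart for Olfr1466.

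The duplicate arrays set the scale for all differences. Across the 90 genes, the SD between the arrays of a pool, taken around their mean difference, was 0.22 (log2) in C-C, 0.24 in C-DE, 0.28 for EE-C and 0.25 in EE-DE. For the 5423 dimmest detected genes it was 0.18, 0.18, 0.24 and 0.24. This SD leaves out a shift common to the genes. The first array minus the second had a median of 0.16, −0.10, 0.11 and −0.15 over the 90 genes in the same order. The 2 arrays lay at least 1.5-fold apart for 7 genes in C-C, 10 in C-DE, 9 for EE-C and 13 in EE-DE. For 4 of the 90 genes the probe was printed 10 times per array, and the SD between its spots on an array had a median of 0.29 and ranged from 0.12 to 0.86.

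For exposure in standard cages (C-DE/C-C), 3 of the 90 genes lay past 1.5-fold. Olfr1257 and Olfr332 were higher (2.22% of the genes), and Olfr536 was lower (1.11%). Among all 21691 detected genes, 0.244% were higher and 0.53% lower by this measure, and among the dimmest genes the shares were 0.738% and 1.27%. The median difference of the 90 genes was −0.01 (−0.10 to 0.12 over the pairings), beside −0.00 for all genes and −0.02 for the dimmest genes. The arrays of the pools did not overlap for 32 genes (35.6%), 14 higher and 18 lower in C-DE, while 41.2% of all genes did not overlap.

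Olfr536 was the sole receptor for which every pairing passed 1.5-fold after exposure in standard cages, as it did for 0.143% of all detected genes. Its level was −3.49 and −3.49 in C-C, −4.14 and −4.60 in C-DE, −3.41 and −5.04 for EE-C, and −3.60 and −3.45 in EE-DE. The C-DE arrays and the second EE-C array were lower than the other 5. C-DE/C-C was −0.87 (−1.11 to −0.64), 1.83-fold lower. Another probe of Olfr536, at chr7:147689756-147689815, was well above background on 3 arrays and gave 0.24 in C-DE/C-C, the opposite direction. With both probes averaged, the value was −0.31. The positions of the probes were not realigned to a genome, and whether the passing probe reads the Olfr536 transcript was not tested.

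Olfr1257, a chromosome 2 receptor, had levels of −4.63 and −5.39 in C-C, −3.63 and −4.48 in C-DE, −4.25 and −5.75 for EE-C, and −4.19 and −4.24 in EE-DE. In both rearing groups the exhaust arrays lay above the clean air arrays, but by as little as 0.15 and 0.01 in the closest pairing. C-DE/C-C was 0.95 (0.15 to 1.76) and EE-DE/EE-C was 0.79 (0.01 to 1.56). Olfr332 had levels of −4.99 and −5.42 in C-C and −4.87 and −4.23 in C-DE, a difference of 0.66 (0.12 to 1.20). Both genes lost the call in C-DE/C-C when certain single arrays were left out. Olfr1257 was at 0.57 without the second C-C array and 0.53 without the first C-DE array, and Olfr332 at 0.44 and 0.34 without the second array of C-C or of C-DE. In EE-DE/EE-C, Olfr1257 was at 0.03 without the second EE-C array. The detection rule bears on both genes. The dimmest Olfr spot called detected had an intensity of 29.6 on the first EE-DE array and 8.60 to 11.1 elsewhere. The lowest intensities of Olfr1257 and Olfr332 were 12.9 and 16.5. Either gene could enter the list only with a higher signal on that exhaust array. Their values in EE-DE/EE-C are thus not independent of the selection.

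Other large differences in C-DE/C-C stayed under 1.5-fold. Olfr1508 was at −4.20 and −4.08 in C-C and at −4.61 and −4.61 in C-DE, a difference of −0.47 (−0.54 to −0.40). Olfr738 gave 0.58 (−0.07 to 1.23), through the first C-C array, which read −5.37 against −4.21 on the second. Olfr700 was also low on that array, at −4.25 against −2.96, and both genes were lower on the first EE-C array than on the second. The spots printed around each deviated by a median of at most 0.03 from their mean over arrays on any array.

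For exposure after enriched rearing (EE-DE/EE-C), 3 of the 90 genes also lay past 1.5-fold. Olfr1257 and Olfr536 were higher (2.22%), and Olfr414 was lower (1.11%). The limit set by the detection rule, given above, applies to Olfr1257 here. The shares of all detected genes were 0.627% higher and 0.456% lower, and those of the dimmest genes 1.51% and 1.27%. None of the 90 genes, and 0.115% of all genes, passed in all 4 pairings. The median difference was −0.01 (−0.15 to 0.09), beside −0.01 for all genes and −0.00 for the dimmest genes. The pools did not overlap for 28 genes (31.1%), 13 higher and 15 lower, against 33.7% of all genes.

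Olfr414, a chromosome 1 receptor, had levels of −2.92 and −3.20 in C-C, −3.53 and −3.38 in C-DE, −2.75 and −3.12 for EE-C, and −4.03 and −3.69 in EE-DE. All 4 exhaust arrays were lower than all 4 clean air arrays. EE-DE/EE-C was −0.92 (−1.28 to −0.57), 1.90-fold lower, and C-DE/C-C was −0.39 (−0.60 to −0.18). Whether the difference depends on rearing could not be tested, with −0.53 between both. The value of Olfr536 in EE-DE/EE-C, 0.70 (−0.19 to 1.59), rested on the second EE-C array, and without it was −0.11.

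Some genes differed in the same direction in both rearing groups, among them Olfr1257, Olfr332 and Olfr414, described above. The arrays did not overlap in either group for Olfr74, Olfr414, Olfr1008 and Olfr1347, which were lower with exhaust, and for Olfr96, Olfr332, Olfr1257 and Olfr1402, which were higher. These are 4.44% of the 90 genes in each direction, and among all detected genes 5.85% were lower and 4.05% higher in the same way. For Olfr332 and Olfr1257, the rule itself favoured a high signal on the first EE-DE array, as said above, so their place among the higher genes is not independent of it. Olfr1347, on chromosome 7, was at −2.70 and −2.77 in C-C, −3.03 and −3.08 in C-DE, −2.72 and −2.84 for EE-C, and −3.29 and −3.19 in EE-DE. Its clean air arrays all lay above its exhaust arrays, with −0.32 (−0.38 to −0.26) for C-DE/C-C and −0.46 (−0.56 to −0.35) for EE-DE/EE-C. Olfr1008 gave −0.34 (−0.51 to −0.16) and −0.50 (−0.80 to −0.19). Olfr74, known as a receptor for ethyl vanillin and read by 8 passing unflagged spots of its probe, gave −0.21 (−0.31 to −0.12) and −0.16 (−0.19 to −0.14). Olfr871 was higher in EE-DE/EE-C by 0.57 (0.36 to 0.79) and gave −0.25 (−0.78 to 0.28) in C-DE/C-C.

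For rearing without exposure (EE-C/C-C), 3 genes lay past 1.5-fold. Olfr843 was higher (1.11%), and Olfr536 and Olfr1500 were lower (2.22%). The shares of all detected genes were 0.346% higher and 0.544% lower, and among the dimmest genes 0.977% and 0.977%. None of the 90 genes, and 0.0645% of all genes, passed in all 4 pairings. Of the 90 genes, 65 (72.2%) were above 0, beside 53.8% of all detected genes and 50.6% of the dimmest genes. Their median was 0.10 (−0.04 to 0.23), beside 0.01 for all genes and 0.00 for the dimmest genes. The range over the pairings includes 0, and over the same genes the first C-C array minus the second had a median of 0.16. The pools did not overlap for 34 genes (37.8%), 28 higher and 6 lower in EE-C, against 40.2% of all genes.

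Olfr843, on chromosome 9, was at −5.08 and −5.33 in C-C, −4.55 and −4.91 in C-DE, −4.51 and −4.47 for EE-C, and −4.17 and −4.87 in EE-DE. Both C-C arrays were lower than the other 6. EE-C/C-C was 0.72 (0.57 to 0.86), 1.64-fold higher. The next largest values were those of Olfr52 at 0.55 (0.05 to 1.06) and of Olfr332 at 0.50 (0.27 to 0.72). Olfr190, on chromosome 16, was at −3.53 and −3.61 in C-C and at −4.09 and −4.11 in EE-C, a difference of −0.53 (−0.58 to −0.48), with duplicates that nearly coincided. Its other probe was not detected on any array. The value of Olfr536, −0.73 (−1.54 to 0.08), again rested on the second EE-C array, and was 0.08 without it.

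For rearing with exposure (EE-DE/C-DE), 5 genes lay past 1.5-fold, all higher in EE-DE (5.56%): Olfr52, Olfr536, Olfr551, Olfr558 and Olfr1417. No gene was lower. Among all detected genes 0.664% were higher and 0.157% lower, and among the dimmest genes 1.99% and 0.443%. The median of the 90 genes was 0.07 (−0.02 to 0.23), beside 0.00 for all genes and −0.00 for the dimmest genes. The pools did not overlap for 38 genes (42.2%), 27 higher and 11 lower, against 41.5% of all genes. Some marker genes were also higher in this comparison: 7 of 11 detected supporting cell genes (list median 1.34) and 4 of 23 sensory neuron genes (list median 0.18) were past 1.5-fold and higher. Their part in the receptor values was not tested.

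The rule itself bears on 3 of these genes. Olfr52, Olfr551 and Olfr1417 are the weakest of the passing genes, and the lowest intensity at which an Olfr spot was called detected reached 29.6 on the first array of EE-DE and lay at 8.60 to 11.1 elsewhere. A gene this dim could enter the list only where its signal on that array was high. Olfr52 was at −5.48 and −5.88 in C-C, −5.76 and −5.23 in C-DE, −5.43 and −4.82 for EE-C, and −4.59 and −4.55 in EE-DE. Both of its EE-DE arrays were higher than the other 6, and EE-DE/C-DE was 0.92 (0.64 to 1.21), past 1.5-fold in all 4 pairings, as for 0.194% of all genes. Without the first EE-DE array its difference was 0.94. Olfr551 gave 0.96 (0.53 to 1.39) and Olfr1417 0.59 (−0.24 to 1.41), each with its highest level on the first EE-DE array. Without that array Olfr551 was at 0.58 and Olfr1417 at 0.17, both under 1.5-fold, and Olfr1417 was at 0.18 without the second C-DE array.

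Olfr536 gave 0.84 (0.54 to 1.15), with both C-DE arrays below both EE-DE arrays. Its other probe gave −0.84, and both probes averaged gave 0.002. Olfr558, a class I receptor known to respond to short carboxylic acids, was at −4.19 and −4.15 in C-C, −3.97 and −4.35 in C-DE, −3.93 and −4.28 for EE-C, and −4.25 and −2.84 in EE-DE. The second EE-DE array stood alone. EE-DE/C-DE was 0.62 (−0.27 to 1.51), and without that array it was −0.08, or 0.43 without the second C-DE array. Olfr213 was likewise highest on the second EE-DE array, at −2.69 against −3.94 to −3.55 on the others, with a difference of 0.56 (−0.08 to 1.20). In EE-DE/C-DE, the lowest values were those of Olfr1500, of Olfr414 at −0.41 (−0.65 to −0.16) and of Olfr1466 at −0.32 (−0.66 to 0.02).

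In both air conditions, the enriched arrays lay above the standard-cage arrays without overlap for 8 genes (8.89%), Olfr52, Olfr97, Olfr141, Olfr373, Olfr522, Olfr544, Olfr704 and Olfr868, and for 7.71% of all detected genes. They lay below for 2 genes (2.22%), Olfr190 and Olfr1500, and for 6.16% of all genes.

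**Figure D4:**
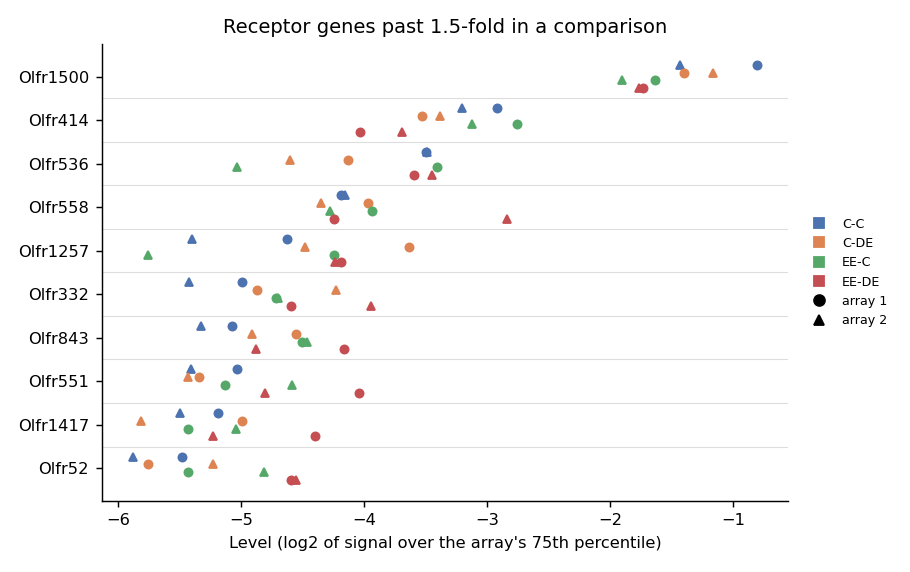
Level of the 10 receptor genes that passed 1.5-fold in at least 1 comparison, on each array (horizontal axis, log2 of the signal over the array's 75th percentile); colours mark the pools and symbols the first and second array. Single arrays stand apart for Olfr536 (second EE-C array, −5.04) and Olfr558 (second EE-DE array, −2.84).

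Over the 4 comparisons, which share pools with each other, 10 of the 90 genes (11.1%) passed 1.5-fold at least once and 80 never did. Among all detected genes 2.32% did so, and among the dimmest genes 6.25%. The change with exposure after enriched rearing minus that in standard cages had a median of −0.03 over the 90 genes and ranged from −0.74 for Olfr1466 to 1.57 for Olfr536. It was past 0.585 for 5 genes, 4 higher and 1 lower. The shares of all detected genes were 1.18% and 0.424%, and those of the dimmest genes 2.95% and 1.25%.

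**Figure D5:**
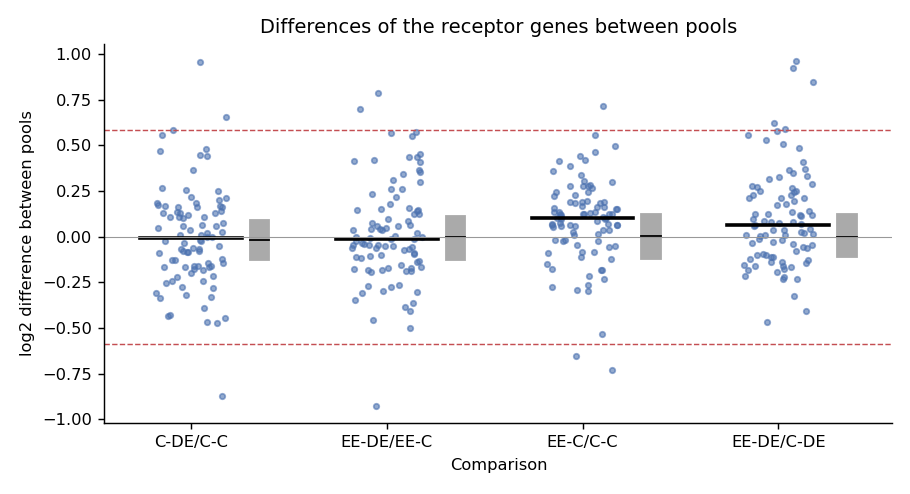
Difference between pools for each of the 90 receptor genes (blue points; vertical axis, log2) in the 4 comparisons, with their median (thick line) and, to the right, the interquartile range of the 5423 dimmest detected genes (grey bar, median as a thin line); dashed lines mark 1.5-fold. The medians of the 90 genes were −0.01, −0.01, 0.10 and 0.07.

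The cells that could carry receptor mRNA into the extract were read through their markers. Of 24 genes of sensory neuron signalling, 23 were detected, all but Rtp1, among them Omp, the defining marker of mature sensory neurons, at 5.81 to 6.15. Defining markers of bulb neurons were detected too, with Th and Gad1 of interneurons at 5.44 to 5.51 and 5.85 to 5.96 and Tbx21 of mitral and tufted cells at 2.17 to 2.29. Lhx2, a homeodomain factor needed for receptor expression, was at 2.35 to 2.59, and Rtp2, which like Rtp1 helps receptors to reach the membrane, was at −2.23 to −1.63.

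Genes of supporting cells and nasal glands differed more between the arrays than the summed receptor signal did. The log2 of the summed signal ran from 1.35 to 2.55 for the 9 detected gland genes, while that of the 23 sensory neuron genes stayed within 7.80 to 8.02. Such a sum follows the brightest genes of a list. Of 16 supporting cell genes, 13 were on the array and 11 were detected, with Cyp1a2 and Fmo6 not detected. The log2 of the summed signal of these 11 was 3.53 to 3.99 in C-C, 3.29 to 3.41 in C-DE, 3.16 to 3.86 for EE-C and 3.82 to 4.25 in EE-DE. In C-DE the brightest of them was Ermn, at 2.75 and 2.80, with a C-DE/C-C of 0.07. Their median was −1.05 for C-DE/C-C, with 7 genes past 1.5-fold and lower, and 0.58 for EE-DE/EE-C, with 5 past it and higher. The first was −0.64 without the first C-C array, again with 7 genes lower. The second ran from 0.11 to 1.22 when each array was left out. Leaving out the second EE-C array gave 0.11, with no supporting cell gene past 1.5-fold, and leaving out the second EE-DE array gave 0.25, with 1 gene past it. Cyp2g1, the defining marker of these cells, was at 1.44 and 0.44 in C-C, −0.86 and −0.44 in C-DE, 1.27 and −0.79 for EE-C, and 1.14 and 1.94 in EE-DE. EE-DE/EE-C of Cyp2g1 was 1.30 (−0.13 to 2.73), and 0.27 without the second EE-C array. The gap between the EE-C arrays is wide for arrays that the methods describe as made from the same RNA.

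Sensory neuron genes divided. Umodl1, Cnga4, Ano2 and Kirrel2 passed 1.5-fold in both exposure comparisons, lower in C-DE and higher in EE-DE, at −1.31 (−1.88 to −0.75) and 1.07 (0.10 to 2.05) for Umodl1 and −0.95 (−1.39 to −0.51) and 0.72 (0.03 to 1.41) for Cnga4, which encodes a channel subunit of odour transduction. Without the second EE-C array none of the 4 passed in EE-DE/EE-C, with 0.45 for Umodl1, 0.28 for Cnga4, 0.29 for Ano2 and 0.51 for Kirrel2. Without the second EE-DE array only Umodl1 did, at 0.72, with 0.47 for Cnga4, 0.50 for Ano2 and 0.52 for Kirrel2. In C-DE/C-C, Kirrel2 was at −0.35 without the first C-C array, and the other 3 stayed past 1.5-fold without it. The other 19 of the 23 stayed under 1.5-fold in both, Omp at −0.13 and 0.04 and Gng13, a G protein subunit of these neurons, at −0.07 and −0.02. Cnga2, Rtp2 and Cngb1 were lower in C-DE without overlap, at −0.51 (−0.66 to −0.36), −0.39 (−0.58 to −0.20) and −0.29 (−0.54 to −0.03). After enriched rearing they gave 0.04, 0.31 and 0.21, with overlap for Cnga2 and Cngb1. S100a5 was higher in C-DE, by 0.23 (0.01 to 0.46). Of all 23 genes, 19 were below 0 for C-DE/C-C and 7 for EE-DE/EE-C. The list's median was −0.10 for C-DE/C-C and 0.05 for EE-DE/EE-C. The log2 of the summed signal of the 90 receptors was 4.01 to 4.15 in C-C, 4.02 to 4.15 in C-DE, 4.12 to 4.26 for EE-C and 4.04 to 4.21 in EE-DE, so the ranges of the 4 pools overlapped. Without Olfr544 and Olfr173, the brightest probes, it was 3.39 to 3.57, 3.46 to 3.56, 3.50 to 3.64 and 3.44 to 3.62 in the same order, again with overlap. The part of mucosal RNA in the differences of single receptors was not tested.

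Lists of transcription factors and of other cell types gave small medians. Medians of 15 detected genes of receptor choice and transcription were −0.08 for C-DE/C-C and 0.02 for EE-DE/EE-C, with Ebf2 past 1.5-fold in both, at −0.71 and 0.59. Ebf2 lost both calls when single arrays were left out, with −0.44 without the first C-C array and −0.57 without the first C-DE array, and in EE-DE/EE-C 0.34 without the second EE-C array and 0.42 without the second EE-DE array. The 7 genes of immature sensory neurons gave 0.01 and −0.05, the 8 of ensheathing glia −0.01 and −0.02, the 7 of mitral and tufted cells 0.04 and −0.01, and the 14 of interneurons 0.02 and −0.05, with no gene past 1.5-fold. Of 14 genes of nasal glands and respiratory epithelium, 9 were detected, with medians of −0.08 and 0.02, and 3 (Bpifb3, Bpifb4 and Ltf) were lower by 1.5-fold in C-DE/C-C, with pairings of Bpifb4 on both sides of 0 (−2.63 to 0.99). Without the first C-C array only Ltf remained lower, at −0.97, with −0.50 for Bpifb3 and 0.50 for Bpifb4, and without the first C-DE array Bpifb4 was at −0.33. Obp1a, an odorant binding protein of nasal glands, gave −1.73 (−3.24 to −0.23) in EE-DE/EE-C through the second EE-C array, at 1.00 against −2.27 to −1.97 on the other 7, and −0.25 without it.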

How the data were processed

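Olfactory bulb RNA of 4 groups, pooled by group, was read on 8 one-colour Agilent mouse arrays, 2 arrays per pool, each with 62976 spots. The deposited scanner files hold the processed signal intensity of each spot, background-subtracted per the file headers by Agilent Feature Extraction 10.7.3.1. A deposited table holds log2 values that the authors normalized. Set against the scanner values over 30689 probes, it is on the log2 scale (slope 1.00 between array differences), runs the same way and has each probe centred on its median over the arrays, with column medians of −0.011 to 0.018. It served only as an alternative.

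Control spots (3671) and spots with outlier flags were left out. Each array's intensities were divided by their 75th percentile over noncontrol spots and log2 was taken, and passing spots of a gene were averaged, so 21691 detected genes were compared. Python 3.11.15, numpy 2.4.6, pandas 2.3.3, scipy 1.17.1, R 4.3.3 and limma 3.58.1 were used, and the steps were tested on simulated data. No saturated spot was found among Olfr spots. The number of arrays limits the precision.

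Differences were pool means with the range over pairings of arrays, with no test. Genes named by a set rule were Olfr1500, the 12 of highest mean level, those past 1.5-fold in all 4 pairings, the 3 largest differences in each direction of each comparison, the 3 weakest passing genes and the 3 nearest to passing, and genes of the lists. Other Olfr genes were named after their values were seen. The members and gene lists were chosen with earlier results of these data known. Alternatives were other scalings, background corrections, detection rules, thresholds, probe rules and leaving out each array.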

Additional observations from a re-analysis of the deposited data

Results flagged for a closer look

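For 3 of the 90 receptors (3.33%), exposure differences had opposite signs in all 4 pairings of the 2 rearing conditions, as they had for 923 of 21691 detected genes (4.26%). The difference between the rearing conditions was not tested. Olfr190 gave −0.16 (−0.28 to −0.04) in C-DE/C-C and 0.14 (0.05 to 0.23) in EE-DE/EE-C, 0.302 apart on the log2 scale. Olfr1339, on chromosome 4, gave −0.15 (−0.23 to −0.06) and 0.41 (0.34 to 0.47), 0.551 apart. Olfr745, on chromosome 14, gave 0.25 (0.07 to 0.43) and −0.17 (−0.32 to −0.02), or −0.421 for the second minus the first. None of these differences reached 1.5-fold.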

How the results depend on the processing

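No paired analysis was possible because the 2 arrays of a group carry the same RNA pool and their numbers link no samples across groups. The number of detected receptors, 90, was 276 with the flag for positive and significant signal, and ran from 90 to 178 when each array was left out, 178 being the value without the first EE-DE array. With exposure in standard cages, exposure after enrichment, rearing in clean air and rearing in exhaust, in this order, 3, 3, 3 and 5 genes passed 1.5-fold. Asking for all 4 pairings gave 1, 0, 0 and 1, and 2-fold gave 0 in each. Normexp correction with an offset of 50, which by construction draws dim signals together, gave 0 in each. Quantile normalization gave 5 and 6 in the exposure comparisons. Wider detection rules tested more genes. Positive and significant signal gave 39, 64, 29 and 51 of 276 genes. Detection on both arrays of at least 1 pool gave 40, 63, 29 and 46 of 270 genes. The rule without the first EE-DE array, chosen after seeing the data, gave 9, 31, 7 and 20 of 178 genes. The share of all genes past 1.5-fold under these wider rules was not computed, so these counts have no background to be set against. With each array left out, the counts ran from 4 to 9, 5 to 10, 4 to 9 and 6 to 9. The highest came without the second C-DE array, the second EE-C array, the first EE-C array and either C-DE array. Without the second EE-C array, Olfr536 turned to 0.083 with rearing in clean air and −0.113 with exposure after enrichment, and without the first it gave −1.544 and 1.514. Olfr558 with rearing in exhaust was −0.084 without the second EE-DE array and 1.324 without the first. The medians of the 90 genes moved by less than the spread over pairings under every alternative run. For the gene lists, leaving out each array was also added after seeing the data.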
